A study of Drosophila melanogaster with 48 samples.

Results

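The odorant-binding proteins (OBPs) of Drosophila melanogaster are described here as they were read in brain RNA. The members are the protein-coding genes of the count table whose FlyBase symbol is Obp followed by a number, 51 of 17490 genes. RNA-seq with ribosomal RNA depletion was run on samples of 20 dissected brains each, in 48 libraries that form 16 groups of 3. The mutant genotypes were NAGLU KO, NAGLU W422X and NAGLU Y160C, and the control was WG2, which the labels name without any change to Naglu and do not call the parental line. Each genotype was sampled as males and females at week 3 and at week 0, with 12 libraries per genotype, 24 per sex and 24 per age. Naglu encodes the lysosomal enzyme whose human counterpart is deficient in mucopolysaccharidosis IIIB, and the series is presented as a fly model of that disease. Whether the 3 replicates of a group were bred apart is not stated in the labels. The p-values therefore rest only on how far these samples lie apart, which may be partly technical.

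OBPs are small secreted proteins held together by disulphide bonds between conserved cysteines. Support cells of olfactory and taste bristles release many of them into the fluid around the sensory endings, where they bind hydrophobic odorants, pheromones and tastants on the way to receptors such as those built on Orco. Other members are made outside the sense organs: Obp44a in glia of the brain, Obp99b in the male fat body of the head, and several in the male reproductive tract. The antennae and mouthparts are not part of a dissected brain, so the antennal and taste members have no known main source in this tissue.

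Total counts ran from 8690199 to 55801160 per library. Levels are in CPM, the reads of a gene scaled to a common library size (with TMM factors), and a level compared between genes is divided by the gene length of the table (CPM per kb). At these depths a count of 3 equals 0.0512 to 0.297 CPM, which is the range in which many members lie. Naglu stood at 1.396 to 3.71 CPM in KO, 4.55 to 9.13 in W422X, 17.5 to 25.7 in Y160C and 17.9 to 29.5 in WG2. The 6 neuron markers that were found by symbol summed to 6571 to 13109 CPM and the 7 glia markers to 1369 to 6153 CPM. The neuron marker para was not matched. Markers of other tissues were also read in every library. The retina list summed to 675 to 4065 CPM, the fat body list to 528 to 5184 and the haemocyte list to 264 to 7802. The libraries thus held brain RNA together with RNA of markers from outside it. In 9 libraries, all at week 3, over 14000 genes reached 0.5 CPM (14081 to 15610 genes, against 10796 to 13860 in the other 39). These 9 are KO female week 3 replicates 1 and 3, KO male week 3 replicates 2 and 3, Y160C female week 3 replicates 1 and 2, Y160C male week 3 replicate 3, W422X female week 3 replicate 1 and WG2 female week 3 replicate 2. In them the neuron sum was lower (6571 to 7723 CPM, against 7813 to 13109). More members had a read (45 to 47, against 30 to 47). The antenna sum was higher, with overlap (32.8 to 60.7 CPM, against 14.8 to 42.3). The rise was not particular to the antenna list. Median sums were also higher for germ line (6.87 CPM, against 1.23), gut (10.47, against 2.899) and male accessory gland (9.63, against 4.89). The same held for muscle (208, against 78.2), taste organs (26.5, against 18.5) and fat body (1890, against 1285). Median sums were lower for glia (2062, against 3015) and retina (793, against 1172), and hardly differed for haemocytes. Most results are therefore given with all 48 libraries and some only so, and most also without the 9, an alternative chosen after the data were seen. In it KO females, KO males and Y160C females at week 3 keep 1 library each, assumed to vary like the other groups. The 9 were picked by how many genes reached 0.5 CPM, and 39 of the 51 members averaged less than 1 CPM. All 9 are at week 3, so leaving them out can by itself lower the week 3 level of such members. The fit without the 9 is therefore no independent check of an age difference.

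The family is spread over all large chromosome arms and is clustered within them. In BDGP6.54, 29 members lie on 2R, 12 on 3R, 6 on X, 2 on 2L and 2 on 3L. Neighbours no more than 20000 bases apart form 10 runs that hold 33 of the 51. The longest run has 6 genes, Obp56a to Obp56f (2R:19697723-19713976), and a run of 5, Obp50a to Obp50e, spans 2R:14370331-14375385. Obp19a to Obp19d form a run of 4 (X:20415744-20420979), as do Obp59a, Obp58b, Obp58c and Obp58d (2R:22702695-22707772). The annotated proteins have a median length of 151 residues and are at most 259 residues long.

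Of the 51 members, 44 passed the filter on low counts and 7 did not. Obp47b, Obp50b, Obp50c and Obp57d had 0 reads in all 48 libraries, Obp93a had 29 reads in total, Obp56e 32 and Obp84a 135. These 7 are the members that share most of their exon bases with another counted gene. Obp50b and Obp50c share all 1648 with each other, Obp57d shares 1488 with Cpr57A, Obp84a 663 with Dtwd2, Obp47b 611 with CG7741, Obp93a 492 with CG5793 and Obp56e 449 with an antisense RNA. The sources used here do not give how reads in such shared stretches were counted. A low count of these 7 therefore says nothing about their expression. Among the tested members the shared stretches are shorter: 205 exon bases of Obp44a lie in Pabp2 and 63 of Obp73a in Ogdh.

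Obp44a outweighed the rest of the family in every library. It averaged 945 ± 372 CPM (SD, n = 48), with 264 CPM in the lowest library, a median of 919 and 1737 in the highest. Its 879 CPM per kb placed it 25th among all genes of the table, and it made up 73.2 to 97.6% of the summed CPM of the family (median 94.2%). The gene (FBgn0033268, 2R:8134170-8135315, minus strand) is known from glial cells of the fly brain.

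The next members were far lower per length. Obp99c had 27.4 CPM per kb, Obp85a 12.3, Obp18a 11.03 and Obp19d 6.61, and Obp56d, Obp56a, Obp51a, Obp49a and Obp56h followed at 3.39 to 1.88 CPM per kb. Only 12 members averaged at least 1 CPM and 39 averaged less, and 16 had a read in all 48 libraries. Obp99c, Obp85a, Obp56a and Obp51a were steady, with a highest library at 2.14, 1.76, 2.23 and 1.68 times the median library. Obp58c, Obp50a and Obp56g were not: their highest library stood 507, 153 and 82.2 times above their median.

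The members known from the antenna were present at low levels. Obp83a and Obp83b, also called OS-F and OS-E and known from pheromone-sensing hairs, averaged 1.403 and 0.450 CPM. Obp28a averaged 0.567 CPM and Obp69a 0.665 CPM. Obp59a, known for humidity sensing, averaged 0.438 CPM. The taste member Obp49a, known for the suppression of sweet taste by bitter compounds, averaged 2.15 CPM, and Obp57e, known from taste hairs of the legs, 0.316 CPM. Of the members known from seminal fluid, Obp51a averaged 1.15 CPM, Obp56g 0.634, Obp8a 0.531, Obp22a 0.424, Obp56i 0.360 and Obp56f 0.139.

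**Figure D1:**
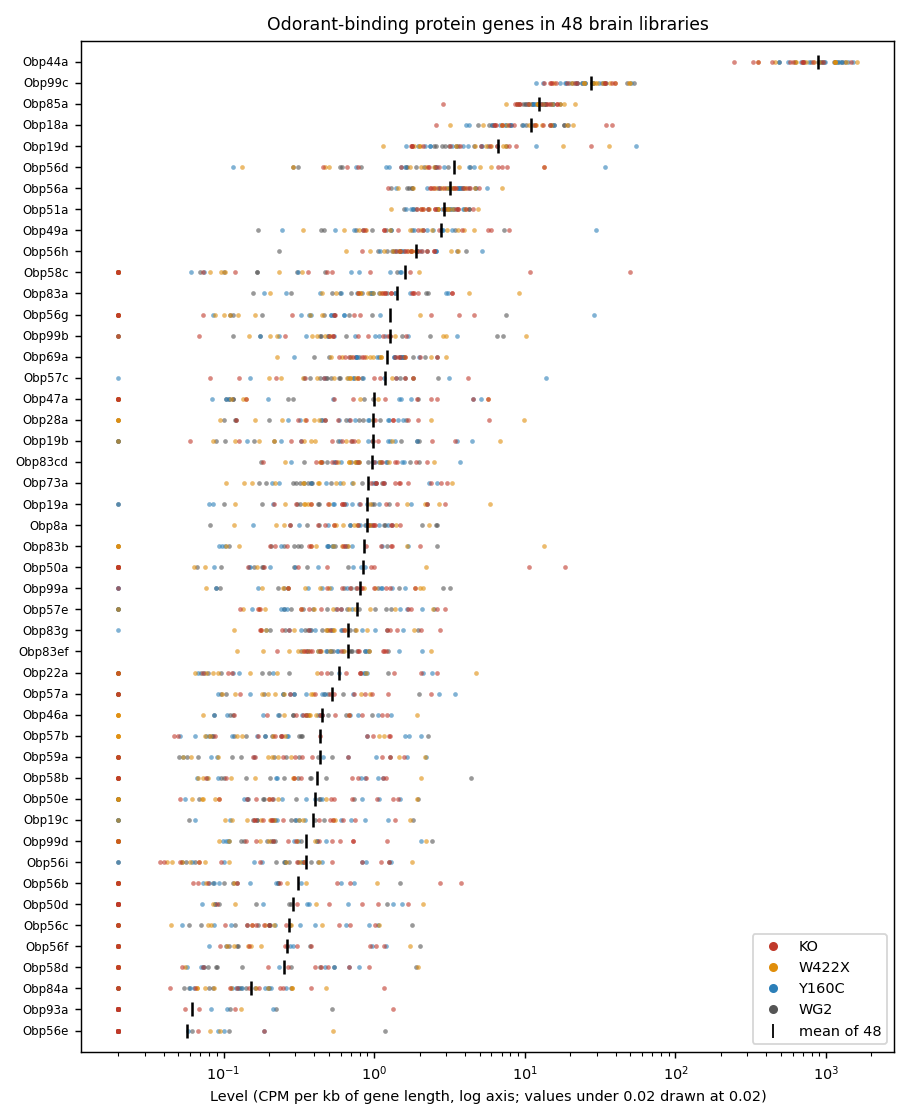
Level of the 47 members with at least 1 read in each of the 48 brain libraries, in CPM per kb on a log axis, coloured by genotype, with values under 0.02 drawn at 0.02 and a tick at the mean. Obp44a, at 879 CPM per kb on average, stands apart from Obp99c at 27.4 and from every other member.

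Obp18a was highest in KO female week 0 replicate 2 (27.9 CPM), KO male week 0 replicate 2 (25.5) and W422X male week 0 replicate 1 (15.2), against a median of 6.07 CPM. The glia sum ranked 4th, 1st and 2nd of 48 in these libraries, at 4064, 6153 and 5911 CPM. Obp44a was highest in W422X male week 0 replicate 1 (1737 CPM) and ranked 3rd in KO male week 0 replicate 2 (1586 CPM), but was at 751 CPM in KO female week 0 replicate 2. Other libraries did not share this order. WG2 male week 0 replicate 2, whose glia sum of 4150 CPM ranked 3rd, had 3.57 CPM of Obp18a, which ranked 44th, and WG2 female week 3 replicate 1, whose glia sum of 2577 CPM ranked 34th, had 13.3 CPM, which ranked 7th. The part of the glia in the level of Obp18a was not tested.

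A single member differed between KO and WG2 over both sexes and ages. In edgeR's quasi-likelihood test, with a call at an adjusted p (Benjamini-Hochberg) under 0.05, it was Obp73a, 1 of 44 members tested, where 0.747% of all genes were called. Without the 9 libraries it was 1 of 39, where 0.357% of all genes were. The members' median log2 fold change was 0.54, against 0.02 for all genes, and without the 9 libraries it was -0.09, so the sign of the members' median was not the same in both. Obp73a (FBgn0036681, 3L:16944361-16954942, plus strand) encodes the longest protein of the family, at 259 residues.

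Obp73a was low in every genotype and higher in KO. In males at week 3 it had 0.930, 2.51 and 2.77 CPM in KO, against 0.327, 0.348 and 0.173 CPM in WG2, and in males at week 0 it had 1.06, 1.35 and 0.935 CPM in KO, against 0.918, 0.290 and 0.747 CPM in WG2. In females at week 3 it had 2.16, 1.04 and 1.24 CPM in KO, against 0.260, 1.02 and 0.464 CPM in WG2, and in females at week 0 it had 1.33, 0.855 and 1.52 CPM in KO, against 0.275, 0.154 and 0.345 CPM in WG2. In each of the 4 combinations of sex and age, all 3 KO libraries lay above all 3 WG2 libraries, by a small margin in week 3 females (1.04 against 1.02 CPM) and in week 0 males (0.935 against 0.918 CPM). Pooled over sex and age the genotypes overlapped slightly, at 0.855 to 2.77 CPM in KO and 0.154 to 1.02 CPM in WG2.

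The log2 fold change of Obp73a was 1.79 ± 0.44 (SE, edgeR adjusted p = 0.0351), with means of 1.47 ± 0.65 CPM in KO and 0.444 ± 0.291 CPM in WG2 (SD, n = 12 each). Without the 9 libraries it was 1.55 ± 0.35 (adjusted p = 0.0364), at 0.855 to 1.52 CPM in 8 KO and 0.154 to 0.918 CPM in 11 WG2 libraries. The call sat close to the threshold. Leaving out any of 16 libraries moved the adjusted p above 0.05, to at most 0.0829, while the log2 fold change stayed between 1.70 and 1.96 over all 48 such fits. They were 7 KO libraries (female week 0 replicates 1 and 3, female week 3 replicates 1 and 3, male week 0 replicate 2 and male week 3 replicates 2 and 3) and 9 WG2 libraries (all week 0 replicates of both sexes, female week 3 replicates 1 and 3 and male week 3 replicate 3). Without KO female week 3 replicates 1 and 3 together the adjusted p was 0.242. None of the 4 sex-by-age combinations was called alone.

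The genes that overlap Obp73a were not called in KO. Ogdh, which shares 63 exon bases, averaged 551 CPM in KO and 612 CPM in WG2 (log2 fold change -0.16, edgeR adjusted p = 0.339), and Cpr73D, which overlaps it without a shared exon base, 15.5 and 14.4 CPM (0.11, adjusted p = 0.394). None of the 14 antenna, 8 taste, 6 neuron or 7 glia markers was called in KO against WG2, with or without the 9 libraries. The antenna sum was 21.3 to 29.1 CPM in KO and 17.4 to 26.9 CPM in WG2 without the 9.

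**Figure D2:**
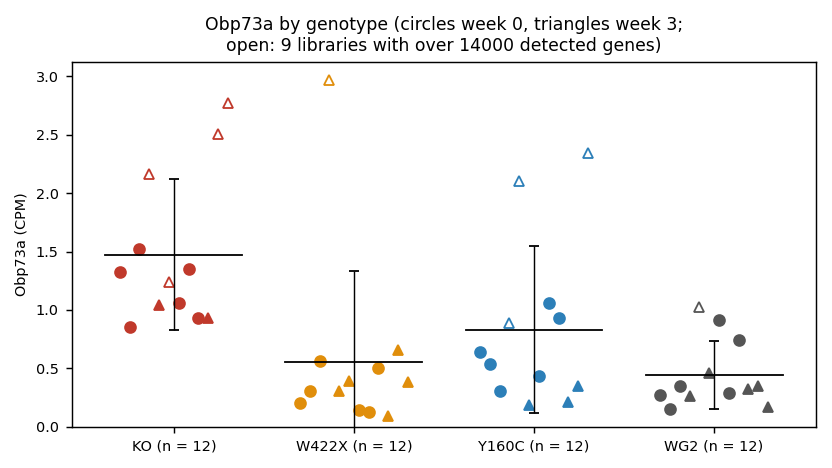
Level of Obp73a in CPM by genotype (KO, W422X, Y160C, WG2), 12 libraries each, circles for week 0, triangles for week 3, open symbols for the 9 libraries with over 14000 detected genes, bars for mean ± SD. KO libraries lie at 0.855 to 2.77 CPM and WG2 libraries at 0.154 to 1.02 CPM, while the highest W422X and Y160C values, 2.97 and 2.35 CPM, are open symbols.

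Obp73a was not called in the other mutants. It averaged 0.552 ± 0.781 CPM in W422X (0.0932 to 2.97) and 0.833 ± 0.711 CPM in Y160C (0.190 to 2.35), against 0.444 ± 0.291 CPM in WG2. The log2 fold change was 0.16 ± 0.44 in W422X (edgeR adjusted p = 0.9999) and 0.96 ± 0.43 in Y160C (adjusted p = 0.606). A contrast of 1 mutant with another was not run, and all 3 comparisons share the WG2 libraries.

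Obp44a was lower in KO without passing the test. It averaged 707 ± 358 CPM in KO and 1058 ± 265 CPM in WG2, a log2 fold change of -0.67 ± 0.19 (edgeR adjusted p = 0.114; -0.66 and adjusted p = 0.518 without the 9). At week 3 all KO libraries lay below all WG2 libraries of the same sex, at 471, 350 and 264 CPM in KO females against 961, 525 and 1206 in WG2 females, and 1031, 743 and 623 CPM in KO males against 1444, 1283 and 1049 in WG2 males. In week 0 females the KO values of 761, 751 and 378 CPM also lay below the WG2 values of 1001, 763 and 1227, and in week 0 males KO, at 645, 1586 and 877 CPM, overlapped WG2, at 1369, 853 and 1012. The adjusted p fell to 0.0430 without KO male week 0 replicate 2, to 0.0432 without WG2 female week 3 replicate 2 and to 0.0392 with DESeq2. In bulk brains fewer glial cells and less RNA per glial cell cannot be told apart. The glia sum had a median of 2757 CPM in KO (1789 to 6153) and 3189 CPM in WG2 (1540 to 4150), and its part was not tested.

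No member was called in W422X or in Y160C against WG2, where 0.373% and 0.31% of all genes were. At an unadjusted p under 0.05 edgeR gave 2 members for W422X, 6 for Y160C and 9 for KO. The share of all genes under that unadjusted threshold was not computed, neither for these counts nor for those of the interactions below. They can therefore not be set against a background. DESeq2 called 0 for W422X and 0 for Y160C. The median log2 fold change of the members was -0.04 in W422X and 0.41 in Y160C, against 0.03 and 0.04 for all genes, and -0.12 and -0.17 without the 9. For the 6 interactions of a mutant with age or sex, edgeR called 0 members (1 to 6 at an unadjusted p under 0.05; DESeq2 called 1 for Y160C by age), and the 12 contrasts of a mutant with WG2 within a sex and an age gave 0.

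Between males and females, 6 of 44 members were called, 5 higher and 1 lower in males, where 10.1% of all genes were called (6.04% higher and 4.1% lower). That share is near the background. Obp99b, Obp44a, Obp49a, Obp56d and Obp19d were higher in males and Obp99a was lower. In the 39 other libraries 4 of 39 were called (10.8% of all genes): Obp99b, Obp44a, Obp49a and Obp99a.

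Obp99b (FBgn0039685, 3R:29716254-29716896, minus strand) is also known as turn on sex-specificity, a gene of the male fat body of the head. In week 0 males it had 0.317, 0.539 and 0.756 CPM in KO, 0.281, 0.246 and 0.301 in W422X, 0.597, 0.699 and 0.992 in Y160C and 0.295, 0.386 and 0.906 in WG2. Week 0 females of the same genotypes had 0, 0.151 and 0.0411 CPM in KO, 0.133, 0.231 and 0.121 in W422X, 0.138, 0.321 and 0.103 in Y160C and 0.0688, 0.103 and 0 in WG2. Every week 0 male library thus lay above every week 0 female library of its own genotype.

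The male excess of Obp99b was present at both ages. Over all libraries males ran from 0.246 to 6.05 CPM (median 0.718) and females from 0 to 0.821 CPM (median 0.144), and the male mean was higher in all 8 combinations of genotype and age, with no overlap in 6. Males against females gave a log2 fold change of 2.20 ± 0.36 (SE, edgeR adjusted p = 2.33e-05), and 3.21 ± 0.38 (adjusted p = 2.12e-07) without the 9, where females reached 0.321 CPM at most. With all libraries it was 2.19 at week 0 (edgeR adjusted p = 0.00778) and 2.21 at week 3 (adjusted p = 0.00231). Without the 9, Y160C females at week 3 are replicate 3 alone, which had no read of Obp99b, so the value of 3.21 depends on how zeros are handled. Between the sexes the fat body markers moved the other way: 4 of 8 were lower and 0 higher in males. Their summed level was 528 to 1402 CPM in males and 1035 to 5184 CPM in females. With age in males they moved as Obp99b did (below), with 4 of 8 called higher and 0 lower at week 3. In males their sum had a median of 1147 CPM at week 3 and 632 CPM at week 0. The part of the fat body in the level of Obp99b was not tested.

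Obp44a was higher in males in each genotype. Males averaged 1153 ± 316 CPM (623 to 1737, median 1225) and females 738 ± 305 CPM (264 to 1454, median 706), with overlapping ranges. The male and female means were 918 and 496 CPM in KO, 1183 and 773 in W422X, 1343 and 734 in Y160C, and 1168 and 947 in WG2. The male mean was higher in all 8 combinations of genotype and age, without overlap in 3. On the log2 scale the difference was 0.68 ± 0.14 (edgeR adjusted p = 5.23e-04; 0.69 ± 0.15 and adjusted p = 0.00320 without the 9). Glia markers moved with it: 5 of 7 were called higher in males with and without the 9, and the glia sum had a median of 3047 CPM in males (2154 to 6153) and 2595 CPM in females (1369 to 4064). Their part in the sex difference of Obp44a was not tested.

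Obp99a lies 43919 bases from Obp99b on 3R and had the opposite sex difference. Males had 0 to 0.727 CPM (median 0.187) and females 0.103 to 1.96 CPM (median 0.633), a log2 fold change of -1.62 ± 0.40 (edgeR adjusted p = 0.00480). Without the 9 it was -2.68 ± 0.44 (adjusted p = 6.76e-05). At week 3 without the 9 there were 0 to 0.164 CPM in 9 male libraries and 0.316 to 1.23 CPM in 6 female libraries, which did not overlap. The levels are those of a few reads, and 3 libraries had none: KO male week 3 replicate 1 and Y160C male week 3 replicates 1 and 2. Without the 9 these are the only libraries of their groups, so the value of -2.68 depends on how zeros are handled.

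Obp49a, Obp56d and Obp19d were higher in males on average and overlapped widely between the sexes. Obp49a had 0.345 to 23.3 CPM in males (median 1.97) and 0.133 to 3.59 CPM in females (median 0.910), with a log2 fold change of 1.13 ± 0.33 (edgeR adjusted p = 0.0216). Obp56d had 0.123 to 31.5 CPM in males (median 2.77) and 0.107 to 12.3 CPM in females (median 1.39), at 1.43 ± 0.41 (adjusted p = 0.0185). Obp19d, known from olfactory and taste organs, had 2.03 to 60.4 CPM in males (median 6.38) and 1.27 to 39.8 CPM in females (median 2.57), at 0.95 ± 0.31 (adjusted p = 0.0403). All 3 had their highest value in Y160C male week 3 replicate 2, and without that library the count of called members was 3 in place of 6, with Obp49a at adjusted p = 0.0628 and Obp56d at 0.0562. Obp49a also missed the threshold without WG2 male week 0 replicate 1 (adjusted p = 0.0556), and Obp56d (0.0779) and Obp19d (0.155) missed it without the 9. The call of Obp19d was lost without any of 24 single libraries.

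**Figure D3:**
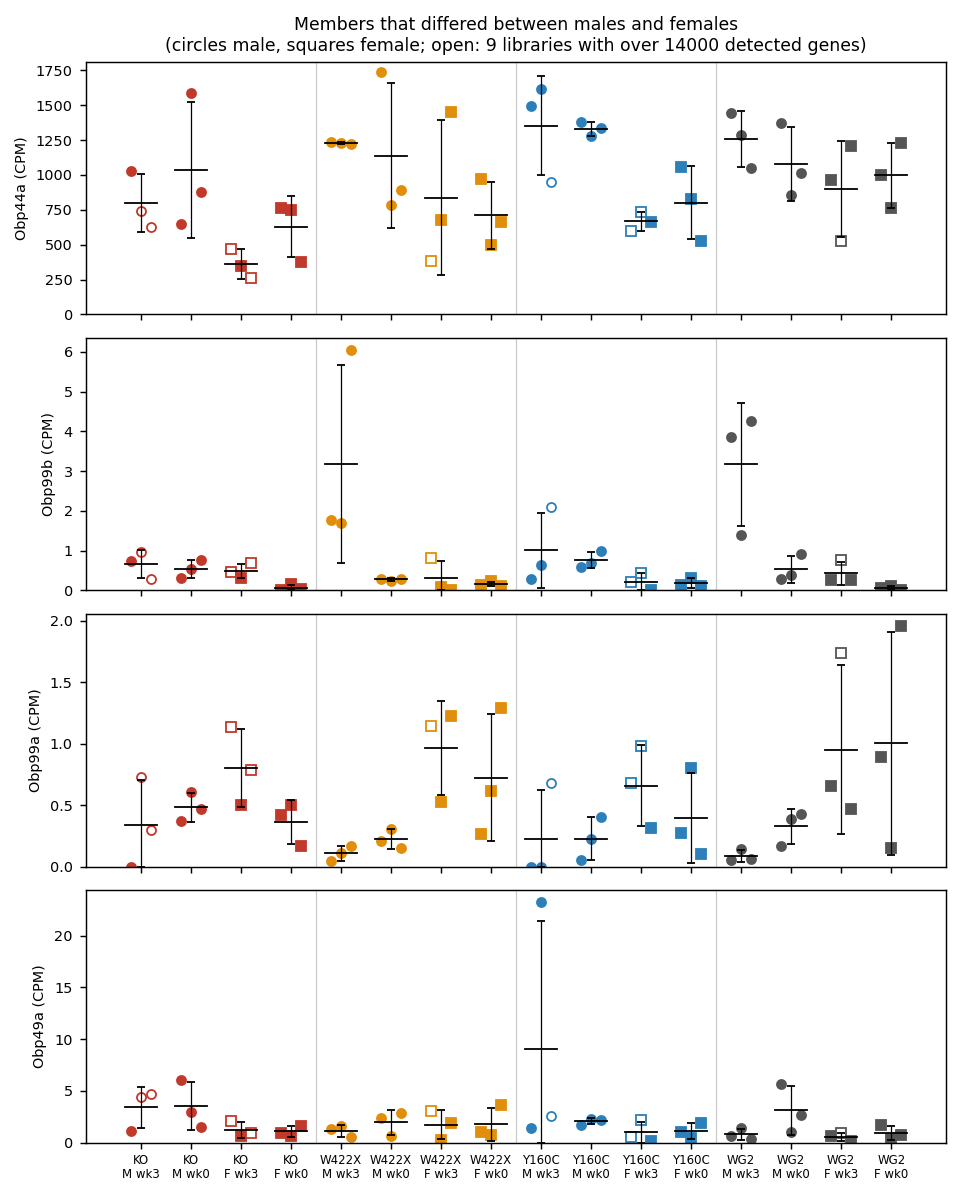
Levels of Obp44a, Obp99b, Obp99a and Obp49a in CPM in each library by genotype and age, circles for males and squares for females, open symbols for the 9 libraries with over 14000 detected genes. Males lie higher for Obp99b (0.246 to 6.05 CPM, against 0 to 0.821 in females) and Obp44a, and lower for Obp99a (median 0.187 CPM, against 0.633).

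In the fit over both sexes the share of members called with age was below that of all genes. With all 48 libraries the shortfall lay mainly in calls lower at week 3. In females alone, with all libraries, the share was above that of all genes (32 of 44, where 62.4% of all genes were called). Of the 51 members 39 averaged less than 1 CPM, and the part of low counts in these shares was not tested. Between week 3 and week 0 over genotypes and sexes, 12 of 44 members were called, 11 higher and 1 lower at week 3, where 44.5% of all genes were called (26.4% higher and 18.1% lower). In the 39 other libraries 6 of 39 members were called, 1 higher and 5 lower, where 38.6% of all genes were. Obp8a (higher) and Obp56a (lower) were called in both. With all others kept, 6 members were called without KO male week 3 replicate 2 or WG2 male week 3 replicate 1, and 7 without W422X male week 3 replicate 1, Y160C female week 3 replicate 2 or Y160C male week 3 replicate 3. The median log2 fold change of all genes was itself 0.16 on TMM scaling, 0.20 on RLE scaling and 0.32 on total counts, so values near these are no change relative to other genes.

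Obp8a (FBgn0030103, X:9214876-9215699, plus strand) had 0.190 to 1.56 CPM at week 3 (median 0.618) and 0.0483 to 0.734 CPM at week 0 (median 0.323). WG2 showed the widest separation, with 1.24, 1.56 and 1.52 CPM at week 3 and 0.413, 0.257 and 0.575 CPM at week 0 in females, and with 0.707, 0.696 and 0.518 CPM at week 3 and 0.164, 0.0483 and 0.213 CPM at week 0 in males. The week 3 mean was higher in 7 of 8 combinations of genotype and sex, without overlap in 4. The exception was Y160C females, at 0.523, 0.782 and 0.190 CPM at week 3 and 0.734, 0.481 and 0.412 CPM at week 0. Week 3 against week 0 gave a log2 fold change of 1.10 ± 0.24 (edgeR adjusted p = 4.19e-04; 0.78 ± 0.27 and adjusted p = 0.0237 without the 9), and it stayed called in each of the 48 fits without 1 library. In males alone it was 1.02 ± 0.34 (adjusted p = 0.0319), a call that was lost without any of 20 single libraries (4 KO, 6 W422X, 4 Y160C and 6 WG2; adjusted p of at most 0.119) and without KO female week 3 replicates 1 and 3 together (adjusted p = 0.0512). Although known from seminal fluid, Obp8a was not higher in male brains (log2 fold change of males against females -0.44, adjusted p = 0.305).

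Obp56a (FBgn0034468, 2R:19697723-19698508, plus strand) was the 1 member called lower at week 3 with all 48 libraries. It averaged 1.52 ± 0.63 CPM at week 3 (0.707 to 3.06) and 1.97 ± 0.61 CPM at week 0 (0.674 to 3.87), with a lower week 3 mean in 6 of 8 combinations of genotype and sex. On the log2 scale the difference was -0.41 ± 0.15 (edgeR adjusted p = 0.0323) and -0.69 ± 0.17 (adjusted p = 0.00206) without the 9. The call was lost without any of 12 single libraries (adjusted p of at most 0.141): KO female week 0 replicate 2, KO male week 0 replicate 1, KO male week 3 replicate 3, W422X female week 0 replicate 3, W422X male week 0 replicate 1, Y160C female week 0 replicate 2, Y160C female week 3 replicate 1, Y160C male week 0 replicates 2 and 3, Y160C male week 3 replicate 3, WG2 female week 0 replicate 3 and WG2 male week 0 replicate 1. Over the 48 such fits the log2 fold change lay between -0.53 and -0.27. In females without the 9 it was -1.03 ± 0.27 (adjusted p = 0.00754), with 0.759 to 1.34 CPM in 6 libraries at week 3 and 1.44 to 3.87 CPM in 12 at week 0, which did not overlap.

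Obp85a was also lower on average at week 3, without passing the test. Its medians were 6.10 CPM at week 3 and 7.34 CPM at week 0, and the week 3 mean was lower in 7 of 8 combinations of genotype and sex. The log2 fold change was -0.20 ± 0.12 (edgeR adjusted p = 0.148; -0.16 and adjusted p = 0.407 without the 9). It was called without any of 14 single week 3 libraries (2 KO, 4 W422X, 4 Y160C and 4 WG2), with -0.32 as the lowest value, without W422X male week 3 replicate 2.

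Obp99b was higher on average at week 3 in all 8 combinations of genotype and sex, without overlap in 4. The log2 fold change over all libraries was 1.69 ± 0.35 (edgeR adjusted p = 2.23e-04), and it was not called without the 9 (adjusted p = 0.951). Week 3 females had 0.463, 0.317 and 0.683 CPM in KO and 0.260, 0.757 and 0.265 CPM in WG2, above all week 0 females of these genotypes, and KO replicates 1 and 3 and WG2 replicate 2 are among the 9. In the other genotypes week 3 females had 0.821, 0.0870 and 0 CPM in W422X and 0.209, 0.440 and 0 CPM in Y160C, which overlapped week 0. In females the log2 fold change was 1.68 with all libraries (edgeR adjusted p = 0.00725), a call lost without W422X female week 3 replicate 1 (adjusted p = 0.111). Without the 9 it was -0.54. There Y160C females at week 3 are replicate 3 alone, which had no read of Obp99b, so this value depends on how zeros are handled. Week 3 males had 1.77, 1.70 and 6.05 CPM in W422X and 3.86, 1.39 and 4.26 CPM in WG2, above all week 0 males of these genotypes. In the other genotypes week 3 males had 0.736, 0.970 and 0.297 CPM in KO and 0.294, 0.642 and 2.09 CPM in Y160C, which overlapped week 0. The log2 fold change of week 3 against week 0 was 3.49 ± 1.02 in W422X males (edgeR adjusted p = 0.0368, 5.19% of all genes called), 2.58 in WG2 males (adjusted p = 0.174; 2.61 and 0.00651 without the 9), 0.33 in KO males and 0.40 in Y160C males, neither called. The W422X call was lost without any of 5 of the 6 W422X male libraries (adjusted p of 0.0503 to 0.223). Against WG2 at week 3 in males the log2 fold change was -2.21 in KO (adjusted p = 0.302), -1.65 in Y160C (adjusted p = 0.561) and 0.00 in W422X, none of them called. Over all males the age difference was 1.70 ± 0.48 (adjusted p = 0.00832; 1.44 ± 0.35 and adjusted p = 0.00174 without the 9).

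The remaining age calls did not last without the 9 libraries, except that Obp50a could not be tested there. Obp83a had medians of 1.01 CPM at week 3 and 1.02 CPM at week 0, and Obp83cd 0.989 and 0.641. For Obp57e, Obp69a, Obp83ef, Obp59a and Obp83b the log2 fold changes were 1.27, 0.68, 0.62, 1.35 and 1.09 with all libraries (edgeR adjusted p of 0.0190 to 0.0491). Without the 9 none of them was called. Obp50a and Obp56f, at 2.22 and 1.90, each have a group with no read at all, so that their fitted values depend on how zeros are handled. Obp22a, Obp47a, Obp58c and Obp99a were called only without the 9, all lower at week 3, where their medians were 0 to 0.139 CPM. Each of them then has a week 3 group with no read, so these fitted values too depend on how zeros are handled.

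In females 6 of the 12 week 3 libraries are among the 9, and in males 3 of 12. With all libraries 32 of 44 members were called between week 3 and week 0 in females, 30 higher and 2 lower, where 62.4% of all genes were called. Without the 9, 2 of 39 were called, where 14% of all genes were: Obp83a at 1.35 ± 0.41 (edgeR adjusted p = 0.0244) and Obp56a. Of the 30 members called higher, 25 could be tested without the 9, and the fitted sign was negative in 14 of them. Without the 9, Y160C females at week 3 are replicate 3 alone. That library had no read of Obp83g, Obp99b, Obp56c, Obp50e, Obp47a, Obp58c, Obp19a, Obp19b and Obp22a, all among the 14. Their fitted values therefore depend on how zeros are handled. A single library moved the count most: 9 members were called without W422X female week 3 replicate 1 and 16 without WG2 female week 3 replicate 2. In the same comparison 12 of 14 antenna markers were called higher with all libraries. So were 5 of 8 taste (2 lower), 3 of 7 male accessory gland, 3 of 8 muscle, 3 of 3 germ line and 2 of 4 gut markers. The same held for 4 of 7 haemocyte (2 lower) and 2 of 8 fat body markers. Lower were 6 of 6 neuron, 4 of 7 glia (1 higher) and 4 of 9 retina markers (1 higher). The antenna sum at week 3 had a median of 33.9 CPM in all 12 female libraries and 23.1 CPM in the 6 kept. In males 2 members were called with all libraries (18.6% of all genes) and 11 without the 9 (47.3%), 2 of them higher and 9 lower.

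Obp83a itself was high in a few female libraries. At week 3 females had 1.27 CPM in KO replicate 2, 8.96 and 0.446 CPM in W422X replicates 2 and 3, 0.948 CPM in Y160C replicate 3 and 0.586 and 1.06 CPM in WG2 replicates 1 and 3, leaving out the 9, and week 0 females had 0.154 to 1.93 CPM (median 0.603). The value of 8.96 CPM stands apart, and the ranges overlap.

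**Figure D4:**
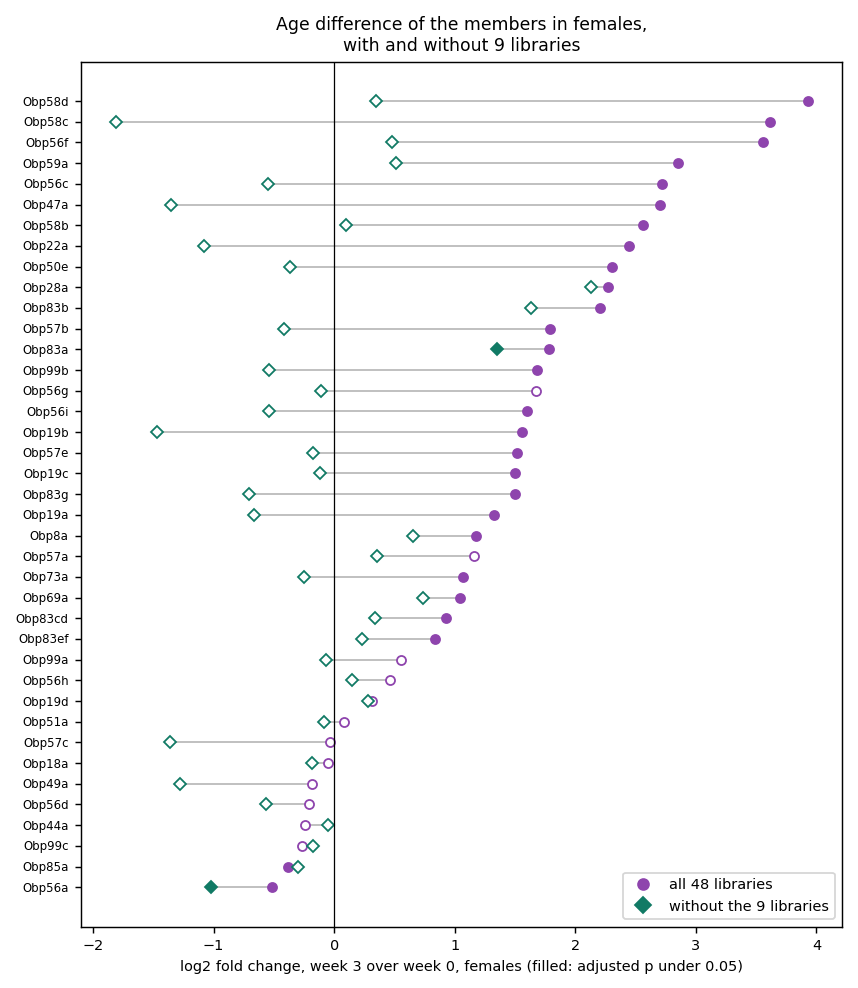
Log2 fold change of week 3 over week 0 in females for the 39 members that could be tested both ways, with all 48 libraries and without the 9 with over 14000 detected genes, filled where the edgeR adjusted p was under 0.05. With all libraries most of the members shown are filled and to the right of 0, and without the 9 only Obp83a, at 1.35, and Obp56a, at -1.03, are filled.

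The age difference was compared between the sexes by an interaction. In 7 of 44 members, all lower in males, the age difference of males minus that of females was called, where 23.4% of all genes were (15.4% lower): Obp83a (-2.05 ± 0.51), Obp28a (-3.23), Obp19a (-2.56), Obp56c (-3.13), Obp59a (-3.0), Obp47a (-3.93) and Obp56b (-4.07), the last pair with a group that had no read. Without the 9 no member was called (0.0927% of all genes), and Obp83a stood at -2.06 ± 0.56 (edgeR adjusted p = 0.104). The count ranged from 0 to 18 when single libraries were left out, and none was called without any of 20 of them, which include W422X female week 3 replicate 1 and Y160C female week 3 replicates 1 and 2. Sex differences at each age also depended on the 9: at week 0 only Obp99b was called with all libraries (4.53% of all genes), and Obp99b, Obp83a, Obp56c and Obp44a without the 9 (13.5%). At week 3, 11 were called with all libraries (23.4% of all genes), 2 higher and 9 lower in males, and Obp99a and Obp99b without the 9 (3.54%). Leaving out 1 library moved the week 3 count to 4 (W422X female replicate 1 or WG2 female replicate 2), 7 (W422X male replicate 2, Y160C female replicate 2, Y160C male replicate 1, WG2 male replicates 2 or 3), 18 (Y160C female replicate 3), 19 (W422X female replicate 3) or 28 (Y160C male replicate 3).

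Many members stood out in single libraries. A value at least 5-fold above the member's own median, with at least 10 reads, occurred 155 times in 34 members, 112 of them in the 9 libraries and 43 in the other 39. The same count over all genes was not made, and the 9 were picked for their many genes at 0.5 CPM. Whether the family differs in this from other genes of like level was therefore not tested. W422X female week 3 replicate 1 had 20 such members, WG2 female week 3 replicate 2 had 18 and KO female week 3 replicate 1 had 17. In KO female week 3 replicates 1 and 3 Obp50a stood at 13.4 and 7.74 CPM and Obp58c at 7.46 and 34.5 CPM, while Obp50a reached at most 1.60 CPM and Obp58c 1.37 CPM elsewhere. Haemocyte markers summed to 6018 and 7802 CPM in these libraries and to at most 784 CPM in the 39.

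Outside the 9, a few libraries carried groups of members. In Y160C male week 3 replicate 2, Obp19d was at 60.4 CPM, Obp56d at 31.5, Obp49a at 23.3, Obp56g at 14.2 and Obp57c at 7.70. That library had the highest muscle sum of all (545 CPM) and an antenna sum of 26.6 CPM, close to the median of 25.1. KO male week 0 replicate 1, with 30.2 CPM of Obp19d and 12.3 CPM of Obp56d, had the next muscle sum (532 CPM), and W422X female week 0 replicate 3, with 19.6 and 12.3 CPM, the one after (424 CPM). W422X female week 3 replicate 2 differed from these: Obp19d was at 39.8 CPM with the antennal members Obp83a at 8.96, Obp83b at 7.09 and Obp28a at 5.65 CPM, and with Obp19a at 3.78 CPM. Its muscle sum was 46.02 CPM and its antenna sum, 42.3 CPM, was the highest of the 39. The part of the tissues these marker lists stand for was not tested.

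**Figure D5:**
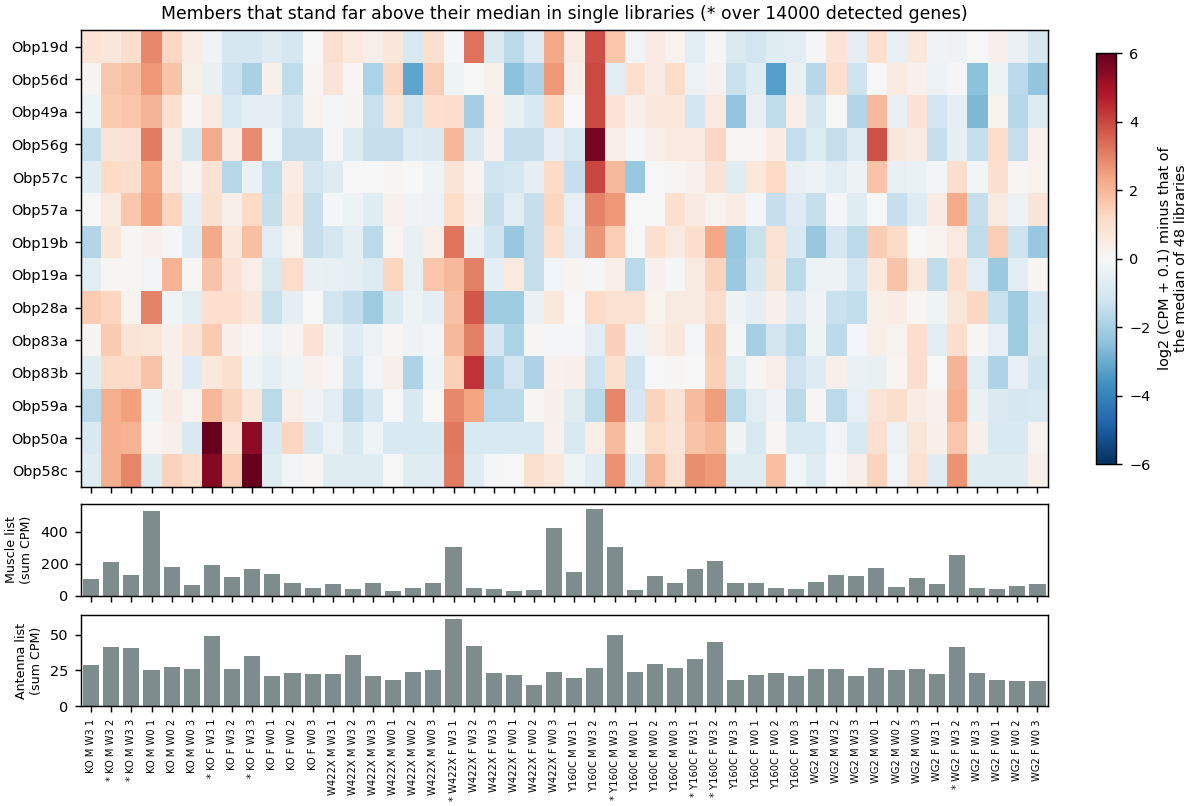
Members that stood far above their median in single libraries, as log2(CPM + 0.1) minus that of the member's median over 48 libraries, one column per library, with the summed CPM of the muscle and antenna lists as bars and an asterisk at libraries with over 14000 detected genes. Obp19d, Obp56d, Obp49a and Obp56g are high together in Y160C male week 3 replicate 2, and Obp19d with Obp83a, Obp83b and Obp28a in W422X female week 3 replicate 2.

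The receptors of smell and taste are given beside the family. Of the odorant receptors 41 of 54 were called higher and 2 lower at week 3 in females, of the ionotropic receptors 48 of 60 higher and 3 lower, and of the gustatory receptors 46 of 54 higher and 2 lower. Of all genes 62.4% were called in this comparison. Without the 9 libraries the counts were 0 and 1 of 53, 0 and 0 of 58, and 0 and 0 of 50, where 14% of all genes were called. In males the median log2 fold changes of these 3 families with age were -0.09, -0.17 and -0.12 with all libraries. Without the 9 the medians in males were -1.10, -1.46 and -1.22, so there the receptors were lower at week 3. In KO against WG2 no receptor of the 3 families was called. Orco, the shared co-receptor, averaged 4.21 CPM in KO, 4.27 in W422X, 3.89 in Y160C and 3.38 in WG2, and lush, the odorant-binding protein for the pheromone vaccenyl acetate, whose symbol keeps it outside the family as chosen here, averaged 0.339, 0.318, 0.307 and 0.346 CPM in the same genotypes.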

How the data were processed

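RNA-seq reads of fly brains were counted per gene by the authors, and their deposited table of raw counts with gene lengths was used, with 48 libraries in 16 groups of 3. Subread is the counting tool named, per the submitters' processing notes, with no version. The genome build, the strand setting and the treatment of reads shared by overlapping genes are not given in the sources used here. Symbols, coordinates and overlaps come from BDGP6.54, matched by gene ID for 17288 of 17490 genes. Other samples had 0 columns in the table.

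Counts were tested with edgeR 4.0.16 (limma 3.58.1, R 4.3.3) by its quasi-likelihood test over 16 group means, with TMM scaling, a filter at 10 counts (filterByExpr, minimum total 15), 32 residual degrees of freedom and Benjamini-Hochberg adjustment over all 15807 genes tested (15109 without the 9 libraries). A gene was called at an adjusted p under 0.05. The scripts were tested on simulated data. Alternatives were DESeq2 1.42.0, RLE or no scaling, no filter, a replicate block, single libraries left out and 2 KO female week 3 libraries left out. Leaving out the 9 libraries with over 14000 genes at 0.5 CPM or more, and the contrasts within a sex, an age or a group of males, were added after the data were seen.

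The members and all marker and receptor lists were chosen with earlier results of these data known. Members called in any of the 12 planned contrasts, the 5 highest per kb and the genes of the receptor lists were to be named, and those described for single libraries were chosen after their values were seen. No pair of replicates differed by as little as sampling noise. Precision follows depth, and the floor of 3 counts covers counting error only.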

Additional observations from a re-analysis of the deposited data

Results flagged for a closer look

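For 7 members the age difference in males differed from that in females by a test of the interaction, in edgeR with all 48 libraries, where 23.4% of all genes were called (15.4% lower). The difference, on the log2 scale, was -2.05 for Obp83a, -3.23 for Obp28a, -3.13 for Obp56c, -4.07 for Obp56b, -3.93 for Obp47a, -3.0 for Obp59a and -2.56 for Obp19a. Obp28a, for example, had medians of 0.304 CPM at week 3 and 0.383 CPM at week 0 in males, and of 0.696 CPM at week 3 and 0.169 CPM at week 0 in females. Obp19a had medians of 0.275 and 0.542 CPM at week 3 and week 0 in males, and of 0.672 and 0.226 CPM in females. Without the 9 libraries no member passed the test (0.0927% of all genes), and none did without any of 20 single libraries. Of the 14 antenna markers 6 were called in the same direction with all libraries. So were 3 of 8 taste, 2 of 4 gut, 2 of 7 male accessory gland, 1 of 3 germ line, 1 of 7 haemocyte and 1 of 8 muscle markers. Neuron, glia and retina markers were called only in the other direction (1 of 6, 1 of 7 and 2 of 9). Of 8 fat body markers 1 was called in the same direction and 2 in the other. The part of these tissues in the values was not tested.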

How the results depend on the processing

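Counts of called members changed most with the choice of libraries. Without the 9 libraries the count was 6 for week 3 against week 0, 0 for the interaction of age and sex, 2 for age in females, 11 for age in males, 4 for sex at week 0, 2 for sex at week 3 and 7 over the 4 age contrasts in males of 1 genotype. Without 2 KO female week 3 libraries it was 0 for KO, 4 for age, 0 for the interaction, 16 for age in females, 1 for age in males, 3 for sex at week 3 and 2 for the age contrasts in males of 1 genotype. DESeq2 called 2 for KO, 19 for age, 14 for the interaction, 1 for Y160C by age, 1 for age in males, 3 for sex at week 0, 19 for sex at week 3, 3 over the 12 contrasts of a mutant within a sex and an age, and 2 over the age contrasts in males of 1 genotype. Total counts gave 4 for the interaction, 2 for sex at week 0 and 1 over the 12 contrasts, RLE gave 2 for sex at week 0, and no filter gave 4 for the interaction and 2 for the age contrasts in males of 1 genotype. The cause of these changes was not tested.

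With 1 library left out, the counts ran from 0 to 2 for KO, 0 to 0 for W422X, Y160C and each of the 6 interactions of a mutant with age or sex, 6 to 17 for age, 3 to 7 for sex, 0 to 18 for the interaction, 9 to 33 for age in females, 1 to 3 for age in males, 1 to 3 for sex at week 0, 4 to 28 for sex at week 3, 0 to 1 over the 12 contrasts and 0 to 3 over the age contrasts in males of 1 genotype.

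Without the 9 libraries the sign turned over for Obp56f (-0.18) and Obp59a (-1.22) with age. In females it did for Obp83g (-0.71), Obp99b (-0.54), Obp57e (-0.18), Obp57b (-0.42), Obp56i (-0.54), Obp56c (-0.55), Obp50e (-0.36), Obp47a (-1.36), Obp73a (-0.25), Obp58c (-1.81), Obp19a (-0.67), Obp19b (-1.47), Obp19c (-0.12) and Obp22a (-1.08), and for sex at week 3 for Obp19b (0.40). Y160C females at week 3 keep replicate 3 alone without the 9. That library had no read of Obp56f, Obp59a, Obp83g, Obp99b, Obp56c, Obp50e, Obp47a, Obp58c, Obp19a, Obp19b and Obp22a. It had at most 3 reads of the other members listed, so these fitted values depend on how zeros and single reads are handled. The call of Obp56a with age was also lost with RLE scaling, with total counts and without any of 12 single libraries.

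No pairing was seen by the replicate numbers of the sample titles. The correlation of deviations of same-numbered samples had a median of -0.01 and was over 0.1 in 125 of 360 pairs. The names of the count columns carry other numbers for some samples, and a pairing by those was not tested. With the replicate block 1 member was called for KO, 11 for age, 5 for sex, 7 for the interaction, 29 for age in females, 2 for age in males, 1 for sex at week 0 and 9 for sex at week 3. In all, 39 members averaged less than 1 CPM, and the part of depth in the calls was not tested.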

Other observations

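Among the genes named beside the family, a10, an antennal member of the chemosensory protein family, was higher at week 3, with 1.34 to 12.7 CPM (median 4.67) at week 3 and 0 to 1.26 CPM (median 0.236) at week 0, which did not overlap. The log2 fold change was 3.88 ± 0.31 (edgeR adjusted p = 2.30e-12), and 3.95 without the 9 libraries. Est-6, an esterase known from the male reproductive tract and the antenna, was lower at week 3, with 13.6 to 37.4 CPM at week 3 and 14.1 to 165 CPM at week 0 (log2 fold change -0.999 ± 0.17, adjusted p = 2.01e-05).

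Gr58b, a gustatory receptor gene, had 7.44 to 14.01 CPM (median 9.89) in W422X and 0.103 to 12.5 CPM (median 0.310) in WG2. In W422X against WG2 the log2 fold change was 4.14 ± 0.44 (edgeR adjusted p = 1.08e-07), and 4.74 without the 9 libraries. Phk-3, of the chemosensory protein family, had 1.90 to 9.16 CPM in KO and 1.13 to 4.45 CPM in WG2 (0.93, adjusted p = 0.0489), and was not called without the 9 (0.49, adjusted p = 0.900).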
